A study of Canis lupus familiaris with 12 samples.

Results

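Left ventricle RNA from dogs with degenerative mitral valve disease, DMVD, was set against that from control dogs across every gene the authors tested in this tissue. DMVD is a thickening of the leaflets of the mitral valve, which then leaks, and the left ventricle is the chamber that pumps against the leak. The genes were the rows marked as tested in the authors' deposited left ventricle table, 13788 of 24223. The DMVD group held 2 libraries, 1 from a Jack Russell Terrier aged 5 years and 1 from a Pomeranian aged 9 years. The control group, labelled normal, held 4 libraries, 1 from a Beagle aged 8 years and 3 from Hound mixes aged 3 years. No breed occurred in both groups, so disease, breed and age cannot be told apart. The labels give no stage of disease, drug treatment, sex or place of sampling in the chamber wall. These 6 libraries are part of a series of 12, and the others came from mitral valves. The deposited table gives 1 value per group, in FPKM, fragments scaled to transcript length and to the number of mapped fragments, so the spread between dogs and any overlap of single libraries are unknown.

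The ventricle wall is mostly heart muscle cells by volume, with capillary and arterial endothelium, mural cells, fibroblasts, resident macrophages, nerve fibres and the blood left in its vessels. A leaking mitral valve sends part of each stroke back into the atrium, and the ventricle then fills with a larger volume. Muscle under such a volume load is known to lengthen, to change its junctions and fuel use, and to signal through stretch, adrenergic and inflammatory pathways. In the sentences below, ratios are log2 of the DMVD over the control value, the standard error (SE) is the one implied by the authors' test statistic, and adjusted p is the authors' two-sided p after Benjamini-Hochberg adjustment over the 13788 rows, with a threshold of 0.05. The words rose and fell are kept for genes past that threshold and go from the control to the DMVD value. Bulk RNA does not separate fewer cells of a type from less RNA per cell.

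The label of the tissue held in both groups. The most abundant nuclear gene with a symbol and a test was PLN, the regulator of the sarcoplasmic calcium pump, at 18413 FPKM in DMVD and 19863 in control. The ventricular light chain MYL3 stood at 4451 and 4676 FPKM, troponin T (TNNT2) at 4000 and 7051, tropomyosin TPM1 at 9268 and 9039, and myoglobin (MB) at 6235 and 8868. None of these 5 passed the threshold. The beta myosin heavy chain MYH7 and the muscle creatine kinase CKM could not be compared, because the authors marked them as having too many reads and listed them at 0 in control, against 1637 and 6855 FPKM in DMVD. The atrial light chain MYL4, chosen here after its values were seen, had 106 FPKM in DMVD and 33.5 in control (adjusted p = 0.195 from the authors' test).

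Of the 13788 rows, 425 passed (3.08%), 265 higher in DMVD (1.92%) and 160 lower (1.16%). An unadjusted p under 0.05 was found for 1552 rows (11.3%), and counts of such p in the lists below are read beside that share. A symbol stood on 341 of the 425, of which 216 were higher and 125 lower. Rises were found at higher levels than falls. The median of the mean group value was 7.86 FPKM for rows that rose and 2.49 FPKM for rows that fell, and 166 of the rises and 53 of the falls reached a mean of 5 FPKM. The smallest ratio that passed was 1.35 among rises and -1.33 among falls. The median SE was 0.82 below a mean of 1 FPKM and 0.45 between 20 and 100 FPKM.

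The whole distribution leaned with the level of the gene. Below 1 FPKM 40.2% of rows were higher in DMVD, with a median ratio of -0.24. Between 5 and 20 FPKM 49.3% were higher and the median was -0.01, and at 100 FPKM or more 68.8% were higher and the median was 0.27. Over all rows the median was -0.04 and 46.8% were higher. Gene span moved with the ratio less: among named genes with a locus of their own whose mean reached 5 FPKM, those spanning 69 to 4878 bp had a median of 0.11 and those spanning 49521 bp or more -0.02. A small ratio in a highly expressed list therefore sits near the general lean, and each list below is read beside these values.

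**Figure D1:**
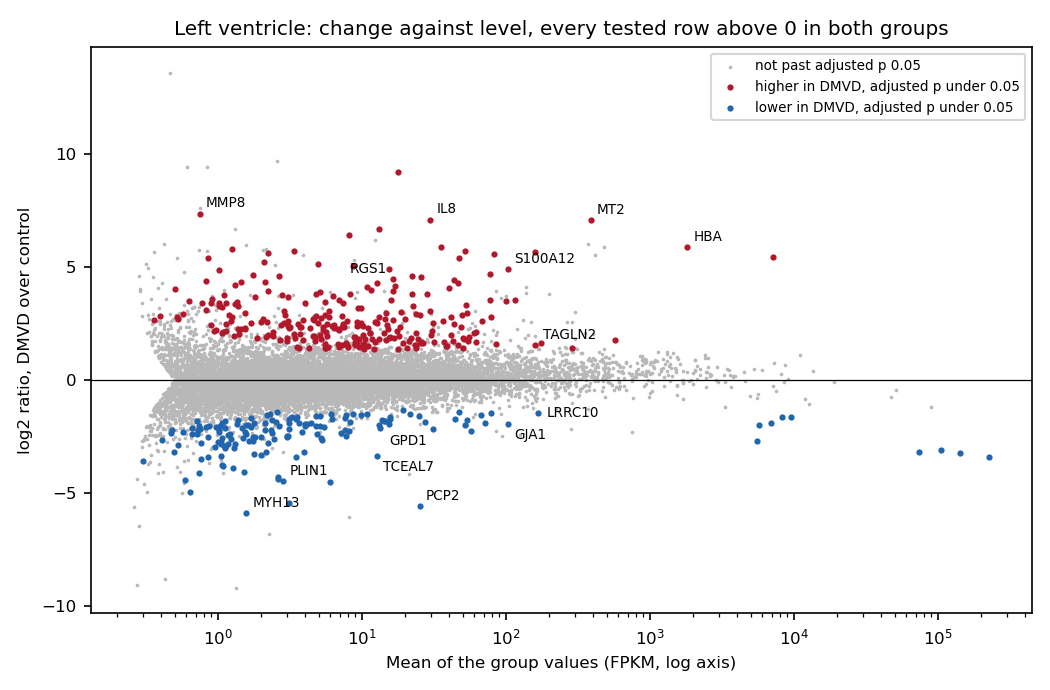
Each point is a tested row above 0 in both groups, with the mean of the group values in FPKM on a log axis and the log2 ratio of DMVD over control on the other axis. Red and blue points passed an adjusted p of 0.05. Red points run from low to high levels, most named blue points lie below 100 FPKM, and the blue points at the highest levels are unnamed rows, most of them mitochondrial.

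The 20 largest rises and 20 largest falls were taken among named genes whose mean reached 5 FPKM. RGS1, which speeds the shut-off of G protein signals and is abundant in leukocytes, rose from 1.44 to 31.3 FPKM (log2 ratio 4.44, SE 0.59). INHBB, the beta B subunit of activin and inhibin, rose from 2.09 to 48.9 FPKM, while INHA, the alpha subunit that turns an activin dimer into inhibin, was among the falls with a ratio of -2.36 (SE 0.51). WFDC1, a small secreted protein with a protease inhibitor fold, rose from 2.04 to 30.7 FPKM. DARC, the chemokine-binding receptor of venular endothelium and red cells, rose from 0.652 to 9.51 FPKM, and its row shares a locus with another gene. Among the falls, the potassium-chloride cotransporter SLC12A7 went from 113 to 29.7 FPKM (log2 ratio -1.93, SE 0.51). The death ligand TNFSF10 fell from 21.1 to 5.20 FPKM, the microtubule-binding protein MAPT from 8.88 to 2.08, and the sterol-related membrane protein TMEM97 from 22.4 to 6.35. FGFBP1, which releases fibroblast growth factors from matrix, fell from 22.1 to 6.25 FPKM. The falls were of smaller size: the 20th rise still had a ratio of 3.87, and only PCP2 and TCEAL7 fell by more than 3 on the log2 scale.

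**Figure D2:**
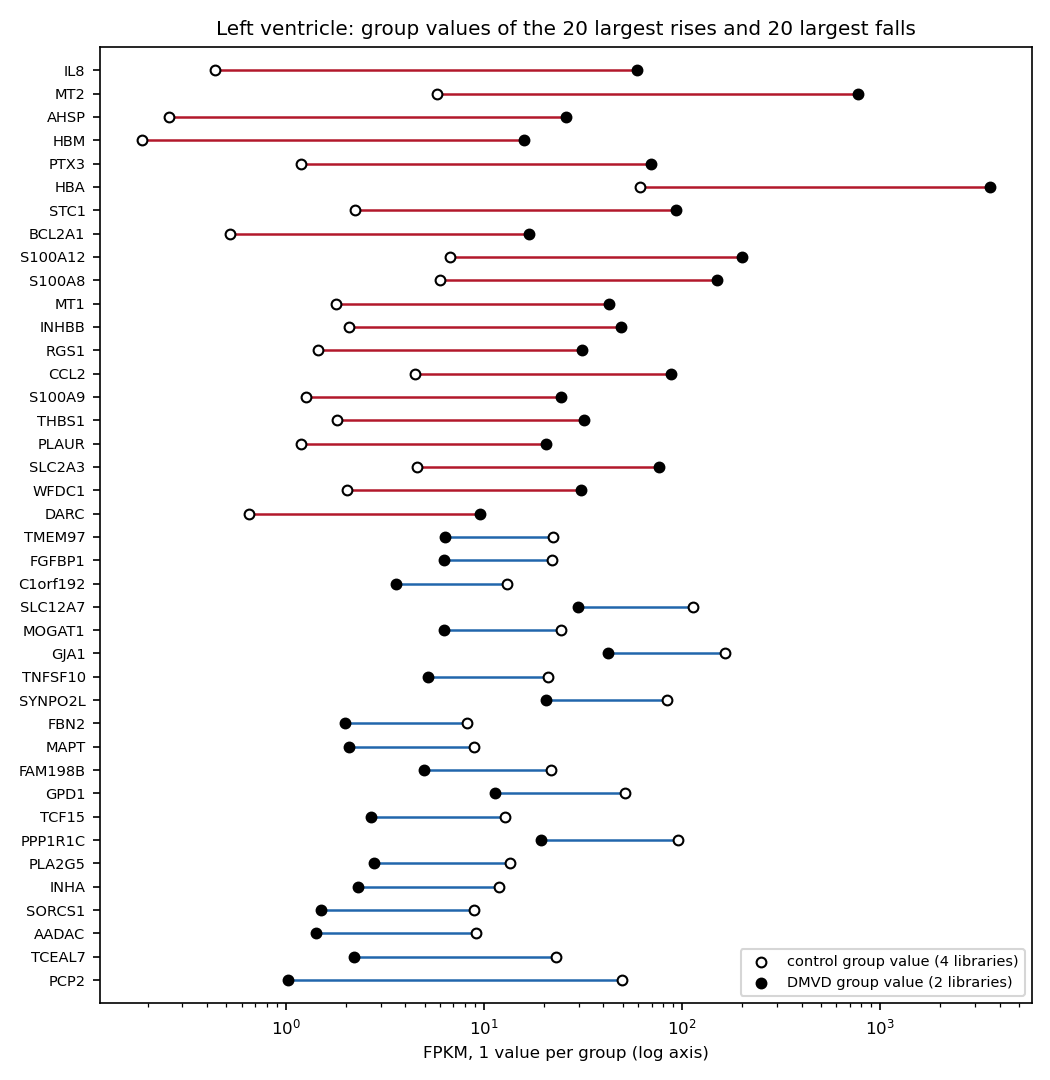
Group values in FPKM on a log axis for the 20 largest rises and 20 largest falls among named genes whose mean reached 5 FPKM, with open circles for control and filled circles for DMVD. Among the rises the control value lies mostly between 0.1 and 10 FPKM, and SLC12A7 and GJA1 have the highest control values among the falls, 113 and 164 FPKM.

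In heart muscle structure, a Z-disc gene, a gap junction gene and a heart-restricted gene fell. Of 31 tested Z-disc, titin and intermediate filament genes 1 passed (3.23%, near the 3.08% over all rows), and the median ratio was 0.03. The member that fell was SYNPO2L (ENSCAFG00000014847, chromosome 4, 24169707 to 24173909), an actin-binding Z-disc protein of heart and skeletal muscle, from 83.5 to 20.5 FPKM (log2 ratio -2.02, SE 0.45, adjusted p = 0.000592 from the authors' test). The stretch-responsive ANKRD1 stood at 2130 FPKM in DMVD and 2101 in control, a ratio of 0.02 that turns to -0.04 when ratios are centred on the median of well expressed genes. The intermediate filament desmin (DES) had 2566 and 1704 FPKM (log2 ratio 0.59, SE 0.69). FHL1, a LIM-domain protein bound to titin, had 178 and 64.3 FPKM, with a ratio of 1.47 that missed the threshold (adjusted p = 0.0610 from the authors' test). None of 28 costamere and sarcoglycan genes passed with the authors' test, and 0 of them had an unadjusted p under 0.05. Their ratios ran from -0.98 for dysferlin (DYSF) to 0.83 for vinculin (VCL), with a median of -0.25.

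GJA1 encodes connexin 43, the main gap junction protein of working ventricular muscle, which carries current from cell to cell. The gene (ENSCAFG00000000958, chromosome 1, 60941788 to 60942950) fell from 164 to 42.1 FPKM (log2 ratio -1.96, SE 0.44, adjusted p = 0.000811 from the authors' test). Across 27 tested intercalated disc and junction genes 1 fell and 1 rose, and the median was -0.07. The gene that rose was CLDN1, a tight junction claudin of barrier epithelia, from 0.262 to 2.47 FPKM. The desmosomal plaque gene DSP had 17.9 FPKM in DMVD and 48.6 in control (log2 ratio -1.44, SE 0.64, adjusted p = 0.302 from the authors' test), and its partner JUP 8.21 and 14.7. The adherens junction cadherin CDH2 had 28.6 and 39.3 FPKM, the desmosomal PKP2 52.2 and 66.6, and the atrial and conduction connexin GJA5 6.88 and 7.15. Of these junction genes, only GJA1 passed as lower.

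LRRC10, a small leucine-rich repeat protein of the Z-disc and sarcoplasmic reticulum that is largely restricted to heart, fell from 248 to 88.5 FPKM (ENSCAFG00000000434, chromosome 10, 11584511 to 11585350, log2 ratio -1.48, SE 0.43, adjusted p = 0.0235 from the authors' test). It was one of 7 named genes past the threshold whose mean reached 100 FPKM, beside GJA1, MT2, HBA, S100A12, ACTG1 and TAGLN2, out of 460 named genes tested at that level. The cytoplasmic actin ACTG1 rose from 85.7 to 265 FPKM (log2 ratio 1.63, SE 0.46), with a locus it shares with another row. The actin-bundling transgelin 2 (TAGLN2) rose from 82.2 to 234 FPKM (log2 ratio 1.51, SE 0.42). Further genes of the non-muscle cytoskeleton passed and are named here after their values were seen. The cytoskeletal tropomyosin TPM4 rose from 23.2 to 96.1 FPKM, the non-muscle alpha-actinin ACTN1 from 3.72 to 13.8, the tubulin TUBB6 from 5.57 to 42.0 and the Arp2/3 subunit ARPC1B from 20.4 to 57.0. The sarcomeric counterparts did not pass: ACTN2 had 539 FPKM in DMVD and 682 in control, ACTC1 3282 and 1565 (log2 ratio 1.07, adjusted p = 0.582 from the authors' test), and TPM1 is given above. Smooth muscle, endothelial cells and leukocytes carry these cytoskeletal genes as well, and the part of each cell type was not tested.

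Skeletal muscle isoforms moved in both directions at low levels. MYL1, the fast skeletal essential light chain, rose from 1.10 to 12.6 FPKM (log2 ratio 3.53, SE 0.80). The fast myosin heavy chain MYH1 fell from 4.28 to 1.04 FPKM, and the muscle carbonic anhydrase CA3 was listed at 0 in DMVD and 3.70 FPKM in control (adjusted p = 0.0309 from the authors' test). Of 10 tested skeletal muscle markers 1 rose and 2 fell. Troponins TNNT3 and TNNI2 of fast fibres were also listed at 0 in DMVD, in rows the authors did not test.

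Among genes of fuel handling, single genes of lipid and amino acid metabolism fell. GPD1 (ENSCAFG00000008288, chromosome 27, 4616698 to 4621892), which makes the glycerol backbone of triglyceride from a glycolytic intermediate, fell from 51.2 to 11.3 FPKM (log2 ratio -2.18, SE 0.44, adjusted p = 9.42e-05 from the authors' test). MOGAT1, an acyltransferase that makes diacylglycerol, fell from 24.3 to 6.25 FPKM. The lipid uptake, storage and lipolysis list held 32 tested genes, of which only GPD1 passed (3.13%, near the 3.08% over all rows) and 23 had lower DMVD values, with a median of -0.38. The fatty acid binding protein FABP3 stood at 3187 FPKM in DMVD and 3480 in control, and the fatty acid transporter CD36 at 135 and 190 (log2 ratio -0.49). FADS1, a fatty acid desaturase, had 8.20 and 23.5 FPKM (adjusted p = 0.0611 from the authors' test). Genes outside the lists that passed as lower, named after their values were seen, were the long-chain acyl-CoA synthetase ACSL1, from 99.8 to 33.5 FPKM, malonyl-CoA decarboxylase MLYCD, from 68.7 to 25.7, and the lipid droplet protein FITM2, from 32.1 to 11.3. Alanine aminotransferase GPT fell from 116 to 41.5 FPKM. Markers of fat cells moved beside these: PLIN1, the coat protein of the fat cell droplet, fell from 5.44 to 0.245 FPKM and CIDEC from 2.30 to 0.318, while RETN rose from 3.63 to 21.4. Of the 5 tested fat cell markers 4 had lower DMVD values, all but RETN, and the list median was -1.79. The 5 markers summed to 23.7 FPKM in DMVD and 17.1 in control, with RETN the largest part of the DMVD sum, and their part in the lipid genes was not tested.

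None of 20 metabolic nuclear receptors and cofactors passed with the authors' test, and 2 of them had an unadjusted p under 0.05, both lower. Of the 20, 15 had lower DMVD values and the median was -0.49, against -0.04 over all rows. The fatty acid receptor PPARA had 7.16 FPKM in DMVD and 12.9 in control (log2 ratio -0.85), its coactivator PPARGC1B 1.18 and 2.43, and the related PPARGC1A 15.9 and 9.59. Of 23 genes of creatine, adenylate and NAD metabolism only 1 passed, which fell (4.35%, against 3.08% over all rows). It was NT5C1A, the nucleotidase that turns AMP into adenosine inside muscle cells, from 24.2 to 7.24 FPKM (log2 ratio -1.74, SE 0.49). Mitochondrial creatine kinase CKMT2 had 423 FPKM in DMVD and 526 in control. None of 21 cholesterol synthesis and uptake genes passed with the authors' test (3 with an unadjusted p under 0.05, 2 higher and 1 lower), and the sterol sensor factor SREBF2 had 2.81 and 6.56 FPKM.

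Among membrane carriers for small solutes, several genes with low control values rose. SLC7A5 (ENSCAFG00000019901, chromosome 5, 65312985 to 65346118, CanFam3.1), the large neutral amino acid exchanger that imports leucine, rose from 0.0889 to 4.35 FPKM (log2 ratio 5.61, SE 0.78, adjusted p = 3.21e-10 from the authors' test), and with 1 FPKM added to both groups the ratio was 2.30. It was the only one of 17 tested amino acid transporters to pass, where the median was 0.08. The glutamine carriers SLC1A5 and SLC38A2 had 6.28 against 2.14 and 35 against 18 FPKM in DMVD and control, short of the threshold. Of 19 monocarboxylate, nucleoside and organic solute carriers 4 rose and none fell. The organic anion carrier SLCO4A1 rose from 0.130 to 6.59 FPKM (log2 ratio 5.67, SE 0.71), and SLCO2A1, which takes up prostaglandins, from 0.271 to 4.16. With 1 FPKM added to both groups their ratios were 2.75 and 2.02. The sodium-phosphate carrier SLC20A1 rose from 4.41 to 18.5 FPKM and the lactate exporter SLC16A3 from 1.5 to 7.26 (adjusted p = 0.0289 from the authors' test). The nucleoside transporter SLC29A1, by far the most abundant of the list, had 291 FPKM in DMVD and 256 in control. The membrane carbonic anhydrase CA4, named after its values were seen, rose from 13.4 to 73.7 FPKM.

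Genes of the amino acid stress response passed in a small part. ATF4, the factor translated under amino acid shortage or unfolded protein, had 321 FPKM in DMVD and 228 in control (log2 ratio 0.49). Its target asparagine synthetase ASNS rose from 0.342 to 1.52 FPKM and the pseudokinase TRIB1 from 2.20 to 7.22. These were the 2 of 18 tested members that rose, none fell, and 15 of 18 had higher DMVD values with a median of 0.24. None of 20 cytosolic aminoacyl-tRNA synthetases passed with the authors' test, 1 of them had an unadjusted p under 0.05 (WARS, higher), and the median was 0.07.

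At the receptors of the heart's autonomic drive no gene passed. Of 23 adrenergic, muscarinic and adenosine signalling genes 0 passed with the authors' test, 5 had an unadjusted p under 0.05 (1 higher and 4 lower), and the median was -0.40 with 15 lower DMVD values. The cardiac adenylyl cyclases, which make cyclic AMP below the beta receptors, had lower DMVD values without passing. ADCY5 had 18.2 FPKM in DMVD and 48.6 in control (log2 ratio -1.42, SE 0.45, adjusted p = 0.0523 from the authors' test), just outside the threshold, and ADCY6 had 23.6 and 57.2. The beta 1 receptor ADRB1 had 6.31 and 12.9 FPKM (adjusted p = 0.314 from the authors' test). Downstream, AKAP12, an anchor for protein kinase A, rose from 2.29 to 12.4 FPKM. Of 26 phosphodiesterases and effectors only AKAP12 passed (3.85%, near the 3.08% over all rows). PDE3A had 18.4 FPKM in DMVD and 45.4 in control. Among 11 RGS proteins, which end G protein signals, RGS1 and RGS2 rose and 9 did not pass. RGS2, which acts on the Gq proteins of the angiotensin, endothelin and alpha 1 receptors, went from 4.25 to 41.2 FPKM (log2 ratio 3.28, SE 0.82).

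Other receptors passed on both sides. APLNR, the receptor for apelin, a peptide that raises contractility and relaxes vessels, fell from 7.15 to 0.777 FPKM (log2 ratio -3.20, SE 0.67). The prostacyclin receptor PTGIR rose from 0.532 to 2.03 FPKM, while PLA2G5, a secreted phospholipase of the same pathway, fell from 13.5 to 2.77. In the prostanoid and leukotriene list these were the 2 of 20 tested genes that passed. Receptors outside the lists, named after their values were seen, were the endothelin B receptor EDNRB, which rose from 3.84 to 14.1 FPKM, the sphingosine-1-phosphate receptor S1PR1, from 12.7 to 39, and the purine receptor P2RY1, which fell from 11.7 to 3.63. The stress hormone receptor CRHR1 was listed at 0 in DMVD and 3.76 FPKM in control (adjusted p = 0.0163 from the authors' test).

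In the growth factor families the genes that rose were mostly ligands. Of 22 EGF, FGF, PDGF and HGF family genes 3 rose, all of them ligands, and none fell, against a list median of -0.27. FGF7, a fibroblast product that acts on epithelia, rose from 3.29 to 17.2 FPKM (log2 ratio 2.38, SE 0.48), hepatocyte growth factor HGF from 0.285 to 1.51, and the macrophage growth factor CSF1 from 4.10 to 16.2. Of 23 VEGF, angiopoietin and apelin genes 2 rose, PGF from 1.06 to 5.18 FPKM and the vasodilator peptide ADM from 9.93 to 32.7, and APLNR fell. The receptor FLT1 had 21.1 FPKM in DMVD and 11 in control and the co-receptor NRP1 4.74 and 12 (adjusted p = 0.0567 from the authors' test). The Notch ligand DLL1 rose from 1.95 to 7.36 FPKM as the only one of 20 Notch pathway genes, and the receptor NOTCH3 of mural cells had 1.07 and 2.93 (adjusted p = 0.0579 from the authors' test). In the insulin and IGF list of 21 genes, IGFBP2, a carrier of insulin-like growth factors, rose from 1.06 to 6.68 FPKM and the insulin receptor substrate IRS2 from 4.32 to 13.7, beside STC1, and none fell. IGFBP7, the most abundant carrier, had 333 and 181 FPKM and did not pass. Among 28 axon guidance genes 1 rose, SEMA7A from 16.8 to 66.6 FPKM, and 2 fell, SEMA3G from 3.49 to 0.749 and the semaphorin receptor PLXNB1 from 7.01 to 1.87. That list's median was -0.49, with 20 lower DMVD values. The ligands of the neighbouring lists named after their values were seen were CXCL14 (52.7 FPKM in DMVD, 6.51 in control), IL15 (12.1 and 2.40), BDNF (8.90 and 0.642), PTHLH (17.0 and 1.89) and GNRH1 (52.4 and 3.76), all of which rose.

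Inside the cell, several feedback inhibitors rose. NFKBIA (ENSCAFG00000013418, chromosome 8, 14099773 to 14103345), the inhibitor that NF-kB itself switches on, rose from 23.4 to 99.6 FPKM (log2 ratio 2.09, SE 0.45, adjusted p = 0.000328 from the authors' test). The related nuclear regulators NFKBIZ and BCL3 rose from 1.25 to 6.23 and from 1.5 to 8.38 FPKM. These were the 3 of 26 tested NF-kB genes that passed, and the feedback gene TNFAIP3 had 1.39 FPKM in DMVD and 0.402 in control (adjusted p = 0.0526 from the authors' test). STAT3, the factor below the interleukin-6 family receptors, rose from 11.1 to 38.1 FPKM as the only one of 20 JAK-STAT and SOCS genes to pass. Its feedback inhibitor SOCS3 had 26.8 FPKM in DMVD and 1.78 in control, a ratio of 3.92 with an SE of 1.72 that did not pass (adjusted p = 0.289 from the authors' test). Of 24 MAP kinase phosphatases and Sprouty-type inhibitors 4 rose and none fell. DUSP5 and DUSP6, phosphatases of nuclear and cytoplasmic ERK, rose from 0.135 to 2.47 and from 12.1 to 35.1 FPKM, and the EGF receptor inhibitor ERRFI1 from 1.89 to 7.2. IER3 rose from 29.8 to 93.7 FPKM, while DUSP1 had 61.4 in DMVD and 36.9 in control and did not pass. None of 12 Toll-like receptor and inflammasome genes passed with the authors' test (2 with an unadjusted p under 0.05, both higher), and TLR4 had 4.53 and 1.69 FPKM (adjusted p = 0.0526 from the authors' test).

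Of 27 tested transcription factors of heart muscle 1 passed (3.70%, near the 3.08% over all rows). TBX20 had 53.8 FPKM in DMVD and 52.2 in control, HAND2 35.5 and 38.1, and GATA4 2.96 and 6.60 (adjusted p = 0.126 from the authors' test). TEAD4, a partner of the stretch-regulated coactivators YAP and TAZ, rose from 2.35 to 8.98 FPKM as the only one of 27 cardiac transcription factors to pass. KLF5 rose from 1.32 to 4.68 FPKM, and KLF4, a factor of endothelium and smooth muscle, had 22.9 and 6.75 (adjusted p = 0.0519 from the authors' test). The retinoic acid receptor RARG fell from 2.56 to 0.509 FPKM, and the orphan receptor NR4A1 rose from 13.2 to 40 (adjusted p = 0.0439 from the authors' test). The clock genes moved apart: ARNTL, the activator of the daily loop, rose from 0.915 to 3.37 FPKM (log2 ratio 1.88, SE 0.58, adjusted p = 0.0417 from the authors' test), and PER3, one of the repressors that it drives, fell from 1.69 to 0.450 (log2 ratio -1.91, SE 0.49). Of the other clock and D-box genes, NPAS2 and NFIL3 had higher and NR1D2, TEF and HLF lower DMVD values without passing, so 2 of 23 passed in all. The labels give no time of day of sampling, and its part was not tested. Centred on the median, ARNTL and NR4A1 no longer passed and ADCY5 did.

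Among growth and protein turnover genes, MYC, which drives ribosome production, rose from 2.93 to 15.4 FPKM (log2 ratio 2.39, SE 0.46). It was the only one of 37 ribosome biogenesis genes to pass (2.70%, near the 3.08% over all rows). Of these 37, 27 had higher DMVD values with a median of 0.30, among them NPM1 at 245 FPKM in DMVD and 132 in control. All 45 tested RPL ribosomal protein genes had higher DMVD values, with a median of 0.78, and none passed with the authors' test (9 with an unadjusted p under 0.05). Of 33 splicing factors 30 had higher values with a median of 0.30, and none passed with the authors' test, while 4 had an unadjusted p under 0.05, near the 11.3% of all rows, with SRSF3 at 43.1 and 17.4 FPKM (adjusted p = 0.0541 from the authors' test). For comparison, all rows between 5 and 20 FPKM had a median of -0.01, those between 20 and 100 FPKM 0.11 and those at 100 FPKM or more 0.27. The mRNA-destabilising protein ZFP36, which binds AU-rich cytokine messages, rose from 12.1 to 94.3 FPKM (log2 ratio 2.97, SE 0.59). Of 32 tested mRNA decay and RNA-binding genes only ZFP36 passed (3.13%, near the 3.08% over all rows).

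Of 23 ubiquitin ligases and growth regulators of muscle wasting 1 passed (4.35%, against 3.08% over all rows). It was ASB18, which fell from 21.4 to 6.18 FPKM, and the list had a median of -0.52 with 16 lower DMVD values. The wasting ligase TRIM63 stood at 93.0 FPKM in DMVD and 92.1 in control, and its ratio of 0.01 turns negative when centred. Over the wider family of 17 tested ASB genes, 2 had higher DMVD values and the median was -0.66. None of 28 autophagy genes passed with the authors' test and 0 had an unadjusted p under 0.05, and the median was -0.07. None of 27 lysosome genes passed either, with 1 unadjusted p under 0.05 (TPP1, lower) and a median of -0.01. Among 24 apoptosis regulators the pro-death BMF fell from 0.922 to 0.123 FPKM beside the rise of BCL2A1, and MCL1 had 70.0 and 28.6 FPKM (adjusted p = 0.141 from the authors' test). None of 18 p53 and growth arrest genes passed with the authors' test, while 6 had an unadjusted p under 0.05, 5 of them higher, including BTG2 at 65.1 and 25.1 FPKM. None of 29 antioxidant genes passed with the authors' test, 2 had an unadjusted p under 0.05, and thioredoxin (TXN) had 687 FPKM in DMVD and 268 in control (log2 ratio 1.36, adjusted p = 0.0568 from the authors' test). Of 31 iron and haem genes 1 passed (3.23%, near the 3.08% over all rows). It was SLC11A1, a metal carrier of phagocyte vesicles, which rose from 0.358 to 2.73 FPKM.

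**Figure D3:**
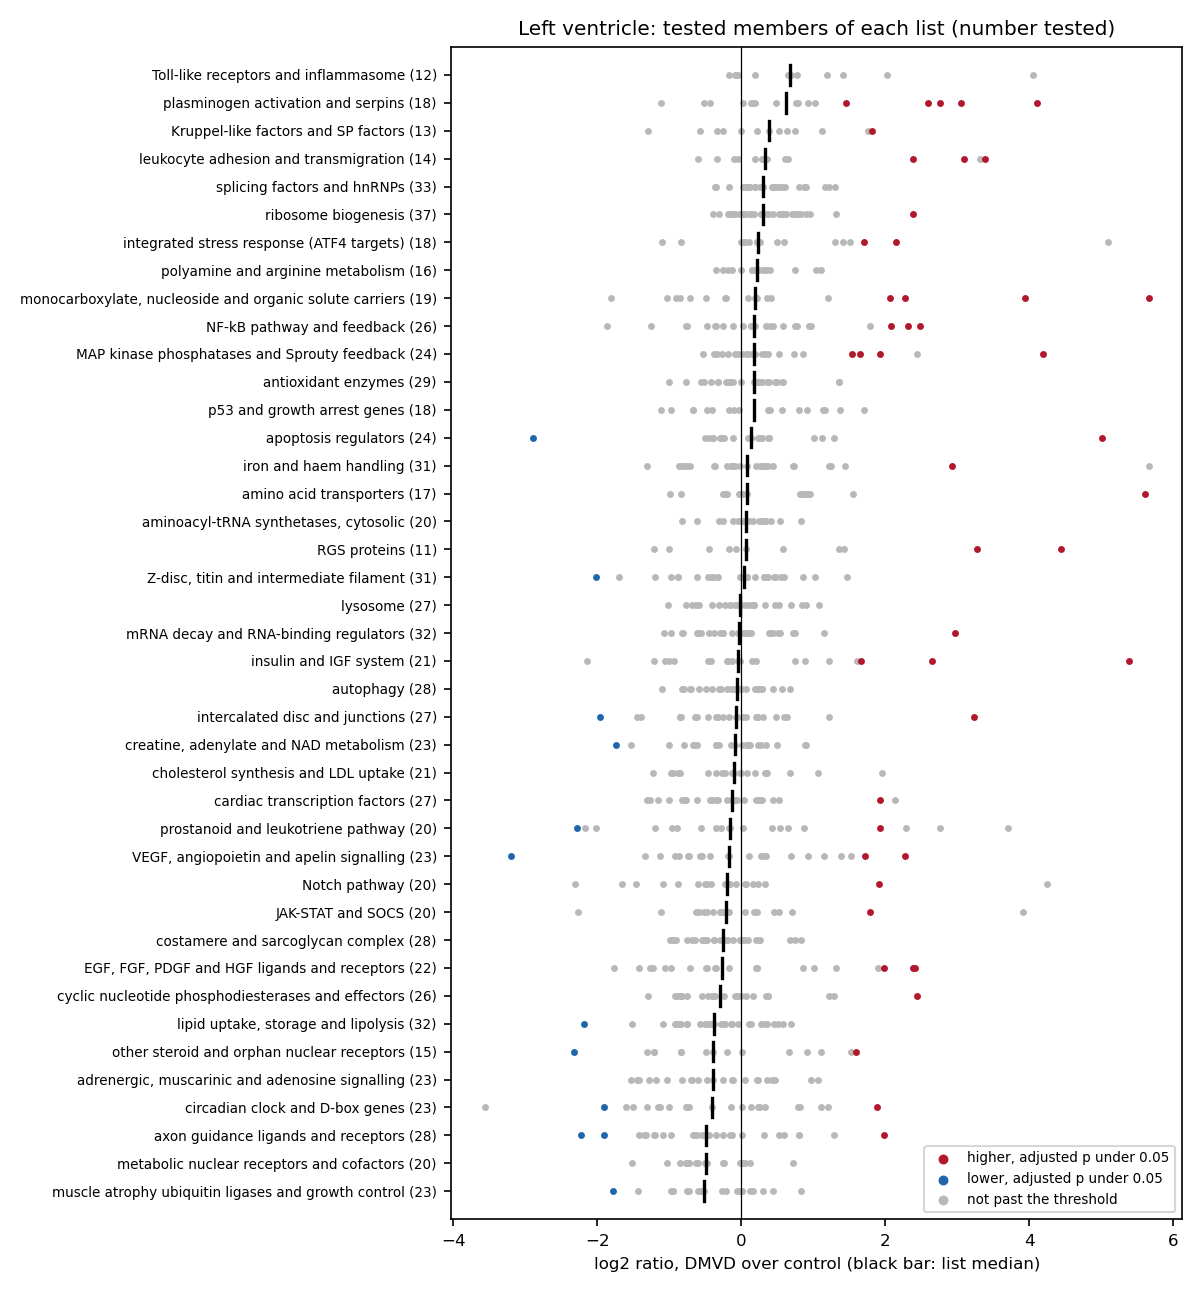
Log2 ratios of DMVD over control for the tested members of 41 gene lists, ordered by list median (black bars), with the number tested in brackets. Members listed at 0 in a group are not drawn. Red and blue points passed an adjusted p of 0.05, most list medians lie between -0.5 and 0.5, and the plasminogen and serpin list holds 5 red points.

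At the vessel wall, genes of leukocyte capture and of clot control rose. ICAM1, the endothelial ligand of leukocyte integrins, rose from 1.98 to 10.4 FPKM (log2 ratio 2.38, SE 0.47) and P-selectin (SELP) from 0.173 to 1.48. E-selectin (SELE) had 1.06 FPKM in DMVD and 0.106 in control (adjusted p = 0.0612 from the authors' test), and 3 of 14 tested members rose and none fell. Of 18 plasminogen activation and serpin genes 5 rose and none fell, and the median was 0.62. Protease nexin SERPINE2, an inhibitor of thrombin and urokinase, rose from 2.25 to 13.5 FPKM. The acute-phase inhibitors SERPINA1 and SERPINA3 rose from 0.615 to 5.11 and from 1.51 to 10.2 FPKM, beside the urokinase receptor PLAUR. Thrombomodulin (THBD), the endothelial switch that turns thrombin towards anticoagulation, rose from 5.08 to 14 FPKM (adjusted p = 0.0477 from the authors' test). Endothelial genes that passed as lower, named after their values were seen, were PCDH12, from 1.98 to 0.248 FPKM, CD300LG, from 3.60 to 0.353, and PLXDC1, from 6.4 to 1.27.

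Markers of blood and immune cells moved with the inflammatory and vessel wall genes. Of 8 tested neutrophil markers 7 rose and all 8 had higher DMVD values, and the list summed to 380 FPKM in DMVD and 15 in control. Of 8 red cell markers 4 rose and none fell, while 5 had higher and 3 lower DMVD values. CA1 and KLF1 were listed at 0 in control, in rows the authors did not test. The red cell list summed to 3647 FPKM in DMVD and 139 in control, and HBA alone had 3559 and 61.3. Lower without passing were GYPC, with 37.0 FPKM in DMVD and 69.5 in control, TMCC2 and BPGM. All 16 macrophage and dendritic markers had higher DMVD values, 3 of them past the threshold, with sums of 213 and 90.3 FPKM. LYVE1, a receptor for hyaluronan on lymphatic endothelium and on resident macrophages, rose from 4.32 to 18.3 FPKM. None of 3 platelet markers and none of 4 T, NK and B cell markers passed with the authors' test, with 1 unadjusted p under 0.05 in each, higher in DMVD. Of the T, NK and B cell markers, CD2, CD247 and CD79B had higher DMVD values, and the list median was 1.31. The tested NKG7 and the untested MS4A1 were listed at 0 in DMVD. The part of these cells in the rises above was not tested. The neutrophil and red cell list medians of 3.84 and 3.85 depend on genes near 0 in control, since with 1 FPKM added they were 1.33 and 1.21.

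Markers of the resident cells passed in both directions. Of 13 tested heart muscle markers 1 rose, NPPA, none fell, the median was -0.11, and the sums were 53572 and 60120 FPKM. Of 15 fibroblast markers POSTN rose from 0.453 to 5.63 FPKM and the laminin chain LAMC3 fell from 1.56 to 0.360. None of 14 mural cell markers passed with the authors' test, 3 had an unadjusted p under 0.05 (1 higher and 2 lower), and the median was -0.33. Nerve and glial markers held 11 tested genes: the neurotrophin receptor NGFR fell from 3.22 to 0.326 FPKM, while the neuronal filament PRPH rose from 0.710 to 5.08. The noradrenaline-making enzyme TH was listed at 0 in DMVD, in a row the authors did not test.

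**Figure D4:**
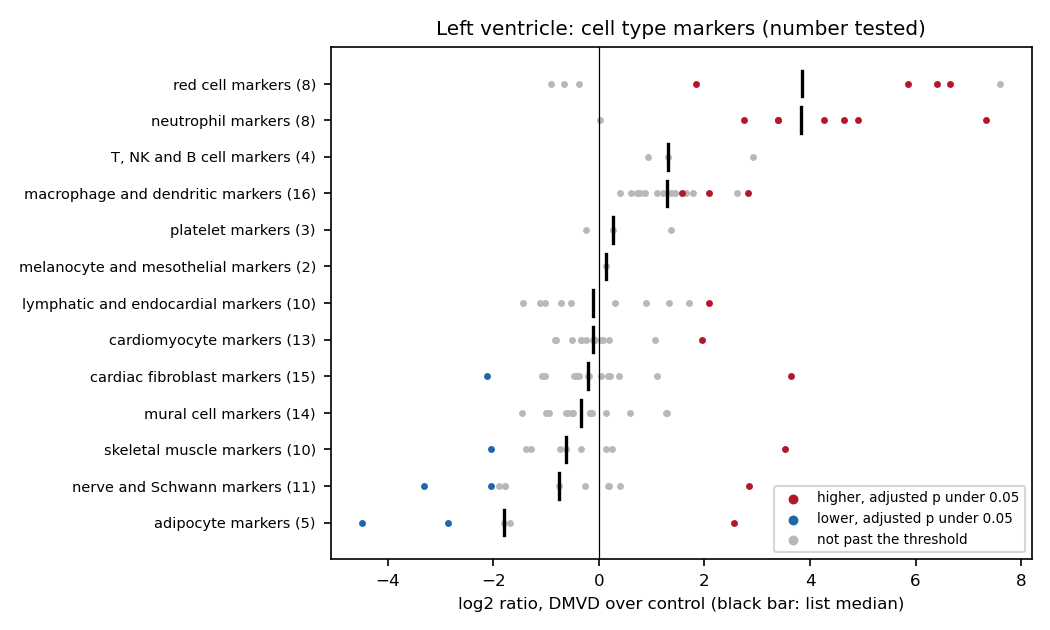
Log2 ratios of DMVD over control for the tested members of 13 cell type marker lists, ordered by list median (black bars), with the number tested in brackets. Members listed at 0 in a group are not drawn. Neutrophil markers carry 7 red points and red cell markers 4, and the nerve and adipocyte lists have the lowest medians, -0.75 and -1.79.

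Called rows lay next to each other in 5 places, where at least 3 neighbours within 100000 bp of each other passed (positions on CanFam3.1). On chromosome 7 the calcium-binding genes S100A8, S100A12 and S100A9 stood between 43540667 and 43569673, and all 3 tested rows rose. On chromosome 6 between 40324263 and 40332696 all 3 tested alpha-globin region rows rose. On chromosome 9 between 9569825 and 9763402 all 3 tested rows fell, MAPT, CRHR1 and the unnamed ENSCAFG00000029324. On chromosome 20 between 52407779 and 52445008, PCP2 fell while RETN and C19orf59 rose, and 1 further tested row did not pass. In the mitochondrial genome 8 of 9 tested rows between 2671 and 9495 fell. Of these 8, ENSCAFG00000022719 went from 416027 to 38840 FPKM. They are short rows, and 24 rows of the table, most of them mitochondrial, were marked as having too many reads and gave no test, so no statement on mitochondrial expression was made from them.

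A total of 84 rows past the threshold carried no symbol. The one with the highest mean outside the mitochondrial genome was ENSCAFG00000030286 on chromosome 21, named in the table only by a UniProt entry, at 14014 FPKM in DMVD and 329 in control. In 6 called rows a group was listed at 0, and no fold change was computed for them. Among the named ones, FOSL1, a component of the AP-1 factor, was listed at 0 in control. The longer Xist row, part of the transcript that silences an X chromosome in females, was listed at 0 in DMVD and 209 FPKM in control (adjusted p = 0.0837 from the authors' test), which did not pass. The shorter Xist row was also listed at 0 in DMVD, against 14.5 FPKM in control (adjusted p = 0.847 from the authors' test). The sex of the dogs is not given in the labels, and whether the groups differ in sex was not tested.

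The same dogs in part gave mitral valve libraries, 3 with DMVD and 3 controls, and 3 control dogs and 1 DMVD dog appear in both tissues by their number. The valve DMVD libraries came from a Pomeranian aged 9 years and from Beagles aged 17 and 16 years. The valve controls were a Beagle aged 8 years and Hound mixes aged 3 years. Of 328 called ventricle genes with a valve test, 8 differed between tissues in the size or direction of their DMVD effect, by a z-test of valve minus ventricle with Benjamini-Hochberg adjustment over 13099 genes (14 of them passed, 0.107%). Since some dogs gave both tissues, the errors of both ratios are not independent. SLC7A5 rose in the ventricle and had a ratio of 1.21 in the valve, a difference of -4.40 (adjusted p = 0.0135 from the SEs of the authors' tests). The deubiquitinase OTUD1 rose from 12.2 to 39 FPKM in the ventricle, and its valve ratio was -1.5. CSGALNACT1, which starts chondroitin sulfate chains, fell from 2.16 to 0.553 FPKM in the ventricle, and its valve ratio was 1.30. OLFML2A, a secreted matrix-binding protein, fell from 2.03 to 0.379 FPKM in the ventricle with a valve ratio of 2.08. The myosin MYH13 fell from 3.08 to 0.0510 FPKM, with a valve ratio of 0.69. For GJA1, SYNPO2L, GPD1, NFKBIA, STAT3 and RGS2 the difference between tissues did not pass, which does not show that the tissues responded alike.

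**Figure D5:**
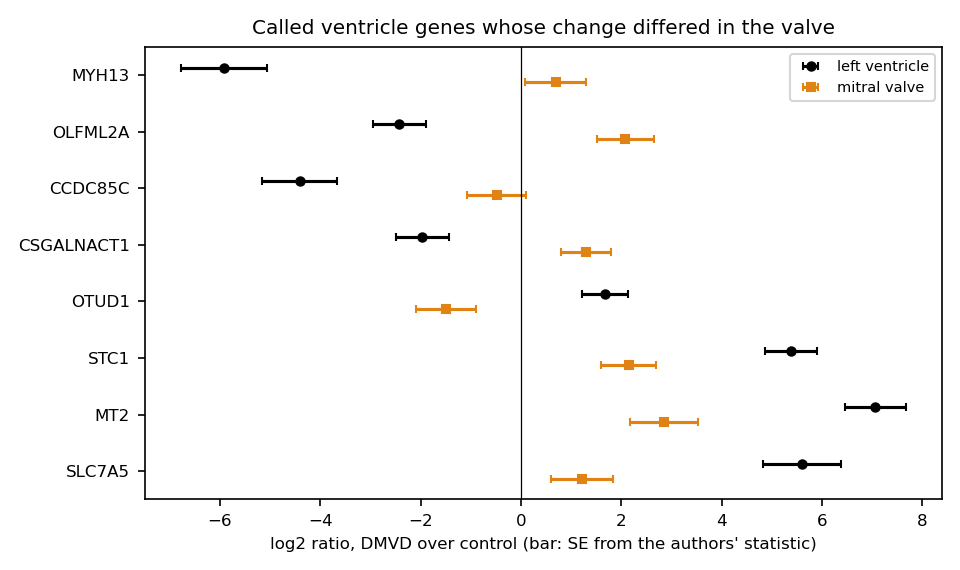
Log2 ratios of DMVD over control in left ventricle (circles) and mitral valve (squares) for the 8 called ventricle genes whose ratio differed between tissues, with bars of 1 SE taken from the authors' test statistic. OTUD1, CSGALNACT1, OLFML2A and MYH13 have ratios of opposite sign, and MT2, STC1, SLC7A5 and CCDC85C keep their sign with a smaller size in the valve.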

How the data were processed

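RNA from left ventricle was made into TruSeq libraries, per the labels' protocols. Trimming and alignment used cutadapt, Bowtie and TopHat against CanFam3.1, per the submitters' processing notes, without versions. The program behind the gene values is named in none of the sources used here. Per tissue, the authors deposited 1 table with 1 value per group, laid out per the file headers like a Cuffdiff gene table, and its values were taken as FPKM (length- and library-scaled fragments). Depth per library is therefore unknown, and p-values measure only the spread the authors modelled. The log2 fold change the authors deposited divides control by DMVD and was recomputed here as DMVD over control. The deposited p-value is two-sided and not adjusted; it equals the normal p of the deposited test statistic within 2.84e-06, so the SE was taken as the ratio divided by that statistic.

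The Benjamini-Hochberg adjustment ran over the 13788 tested rows at 0.05. Symbols came from the table, and 282 UniProt entry names were translated by hand. The 54 lists named 1466 genes, of which 1047 were tested; members and lists were chosen with earlier results of these data known. Named genes were the 20 largest rises and falls with a symbol and a mean of 5 FPKM or more, every called symbol at 100 FPKM or more, per list up to 4 called and 2 uncalled members, the 10 most abundant rows of each group and list members at 0; other list members short of the threshold, and genes outside the lists, were chosen after their values were seen. Alternatives were 0.1 or 1 FPKM added, minimum means, another p adjustment, centring, and leaving out shared loci or rows at 0. The adjustment was tried on simulated ratios whose noise was drawn with the authors' SEs. That cannot show whether those SEs match the spread between dogs. Steps ran in Python 3.11.15 with pandas 2.3.3, numpy 2.4.6, matplotlib 3.10.9 and scipy 1.17.1. A few list members are counted but not reported by name here.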

Additional observations from a re-analysis of the deposited data

Results flagged for a closer look

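For 8 called ventricle genes the DMVD effect in the valve differed from that in the ventricle by the z-test of valve minus ventricle, with Benjamini-Hochberg adjustment over 13099 genes. Higher in the valve, relative to the ventricle, were MYH13 by 6.61 on the log2 scale (adjusted p = 4.65e-06, from the SEs of the authors' tests), OLFML2A by 4.51 (4.32e-05), CCDC85C by 3.93 (0.0305) and CSGALNACT1 by 3.27 (0.00964). Lower in the valve were SLC7A5 at -4.40 (adjusted p = 0.0135, likewise from the authors' SEs), MT2 at -4.21 (0.00756), STC1 at -3.24 (0.0229) and OTUD1 at -3.17 (0.0290). OTUD1 had ratios of 1.68 in the ventricle and -1.50 in the valve, and OLFML2A -2.42 and 2.08. MYH13 and CCDC85C rest on DMVD ventricle values of 0.0510 and 0.234 FPKM. The groups of the tissues differed in breed and age, and 4 dogs gave both tissues, so dog, age and tissue cannot be told apart here.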

How the results depend on the processing

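No paired analysis was possible because the table holds 1 value per group, and leaving out a library was not possible for the same reason. Against 265 higher and 160 lower rows, adjusting only rows of 5 FPKM or more on average gave 170 and 54, so that 75.89% of the called rows were higher in place of 62.35%, and the Benjamini-Yekutieli adjustment gave 152 and 69. Centring on a median ratio of 0.0572 gave 249 and 187, with 57.1% higher. The other alternatives gave 250 to 262 higher and 133 to 163 lower rows. Centring turned 10 named genes, none of them called, to small negative ratios: ANKRD1 to -0.0378, HNRNPA2B1 to -0.0224, JAK1 to -0.0047, MAP1LC3A to -0.0549, NFKBIB to -0.0278, PGLYRP1 to -0.0311, RARB to -0.0440, TBX20 to -0.0121, TPM1 to -0.0211 and TRIM63 to -0.0423. Of 213 named genes, 1 FPKM added to both groups moved 51 by more than their SE and 0.1 FPKM moved 5 (among them BMF, DUSP5, SLC7A5 and SLCO4A1), which shows how much low control values carry the size of a ratio. The red cell list median was 1.21 with 1 FPKM added and 1.84 over members of 1 FPKM or more on average, and the neutrophil list median was 1.33 with 1 FPKM added. The sign of a list median turned for the Z-disc list when centred and for the RGS and iron lists over members with a mean of at least 1 FPKM.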

Other observations

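Several called genes of the ventricle belong to no list above, and they were picked after their values were seen. In steroid and drug metabolism, CYP1A1, the enzyme classically induced by the aryl hydrocarbon receptor, fell from 1.98 to 0.144 FPKM, while CYP1B1 of the same family rose from 5.85 to 20.5. UGCG, which makes glucosylceramide, rose from 5.56 to 23.1 FPKM, and UGDH, which makes the glucuronic acid precursor of matrix sugar chains, from 4.01 to 11.7. In the membrane, the calcium pump ATP2B4 fell from 4.81 to 1.43 FPKM, the potassium channel KCNK13 from 3.83 to 0.821, and ABCC8, the sulphonylurea receptor of potassium channels, from 2 to 0.364. TMEM182, a muscle membrane protein, rose from 23.6 to 87.1 FPKM and the salt-inducible kinase SIK1 from 6.17 to 44.3. CD274, the checkpoint ligand PD-L1, rose from 0.915 to 11.7 FPKM, and the matrix proteins TNC and THBS4 from 0.140 to 1.68 and from 1.77 to 9.62. The Wnt receptor FZD8 fell from 8.16 to 1.52 FPKM and the developmental factor EYA1 from 15.9 to 5.58.

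By the start of the symbol, which is no statement of shared function, all 14 tested ARHGEF genes had lower DMVD values with a median of -0.54, and none passed with the authors' test (1 with an unadjusted p under 0.05). All 10 SRSF genes had higher values with a median of 0.37, and 0 passed (2 with an unadjusted p under 0.05). The 38 MRPL mitochondrial ribosomal protein genes split evenly, 19 higher, with a median of -0.01, beside the 45 higher RPL genes.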
